A study of Mus musculus with 6 samples.

Results

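The genes described here are Atf4, the central transcription factor of the integrated stress response, and 9 genes that act with it or are known to respond to it. They are Chac1, Atf5, Ddit3, Trib3, Asns, Sesn2, Nupr1, Cebpb and Ppp1r15a. They were found by gene symbol in the deposited table with no filter on expression, and all 10 were among its 16759 genes and had reads in every library. The list was drawn up with the results of the comparison of exercised and control muscle known, so the values of these 10 genes are given as a description, with fold changes and their errors but no test of their own.

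The integrated stress response is a pathway in which kinases that sense amino acid shortage, misfolded protein in the endoplasmic reticulum, double-stranded RNA or mitochondrial and heme stress phosphorylate the translation initiation factor eIF2. Protein synthesis as a whole then slows, while the mRNA of Atf4 is translated better, so that ATF4 protein is set largely at translation, a step that RNA sequencing does not measure. ATF4 pairs with C/EBP proteins and switches on genes of amino acid supply, redox balance and, under lasting stress, cell death, and in skeletal muscle the pathway is known from mitochondrial disease and fasting.

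RNA was sequenced from hind leg muscles of 3 control (Con) and 3 exercise (EX) mice, with 1 library per mouse. All were male C57BL/6J mice, 8 weeks old at the start, perfused with saline at dissection, with the fat between the muscles removed. EX mice ran on an electric treadmill in daily sessions of 60 min, 5 days a week over 6 weeks (22 km in all), and muscle was taken 24 h after the final run. Con mice were not trained. The sources used here do not give which hind leg muscle was taken.

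Counts on genes totalled between 13845362 and 16240431 per library. They were scaled by the TMM method to counts per 1000000 (CPM), and edgeR's quasi-likelihood test was run over the 16716 genes with at least 1 read. The threshold, an adjusted p of 0.05, was passed by 12.0% of them, or 2013 genes, with 1016 higher (6.08%) and 997 lower in EX. Scaled to totals without the 20 most abundant genes the split was 798 higher and 1252 lower, and limma on log2(FPKM + 0.1) gave 411 and 1037. The fold changes had a median of -0.00 on the log2 scale over all genes, and the groups did not overlap in CPM for 26.7% of genes. The fibre markers were as the tissue label says, with summed levels of 186221 to 191301 CPM in Con and 199769 to 208262 CPM in EX over 10 genes such as Acta1 and Ckm.

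The DNA element bound by ATF4 with a C/EBP partner, the C/EBP-ATF response element, has the core TGATGNAA. RefSeq promoter windows of assembly GRCm38.p6, from 250 bases before to 50 bases after a start site, were found for all 10 genes, in 11 windows since Atf5 has more than 1 start. The core was present on either strand in 4 of the 11, those of Chac1, Nupr1, Asns and Trib3, and in 3.97% of all 32851 windows. The matches are shown because these are the letters by which the listed targets are usually recognised, 5′ to 3′ on the strand of the gene with the match in capitals.
Chac1: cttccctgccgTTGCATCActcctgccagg
Nupr1: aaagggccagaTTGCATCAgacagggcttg
Asns: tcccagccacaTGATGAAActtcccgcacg
Trib3: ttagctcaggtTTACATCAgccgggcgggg
In Chac1 the stretch lies at chr2:119351038-119351067 (plus strand) with the match starting at position -193 relative to the start site, and in Nupr1 at chr7:126625562-126625591 (minus strand), at position -110. In Asns it lies at chr6:7693214-7693243 (minus strand), at position -23, and in Trib3 at chr2:152344028-152344057 (minus strand), with the match starting at base 15 of the transcript. The core reads on the opposite strand in Chac1, Nupr1 and Trib3, where it appears as its reverse complement. The Chac1 and Nupr1 matches hold the same letters, although the level of Chac1 differed between the groups as given below and that of Nupr1 did not pass the threshold. A second motif, TGACGT, the core of the cAMP response element, was found in 7.51% of all windows and in that of Ppp1r15a only among these genes.
Ppp1r15a: cgcctctccggTGACGTcagcac
This stretch lies at chr7:45526269-45526291 (minus strand), at position -12, and the motif reads on both strands there, in overlapping copies. The windows of Atf4, Atf5, Cebpb, Ddit3 and Sesn2 held neither motif, which says only that these letters are not in these windows.

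Of the 10 genes, Chac1, Atf5 and Ppp1r15a were lower in EX muscle, and Atf4 itself was not. These 3 passed the adjusted threshold over all genes and no member passed it in the other direction, beside the 12.0% of all genes past it, of which 5.96% were lower in EX. Because the list was chosen on this contrast, nothing is read from that count. Of the other 7 genes, 4 had a log2 fold change above 0 and 3 below it. The median over the 10 was -0.12. The groups did not overlap in CPM for 4 genes, these 3 and Atf4, beside 26.7% of all genes.

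**Figure D1:**
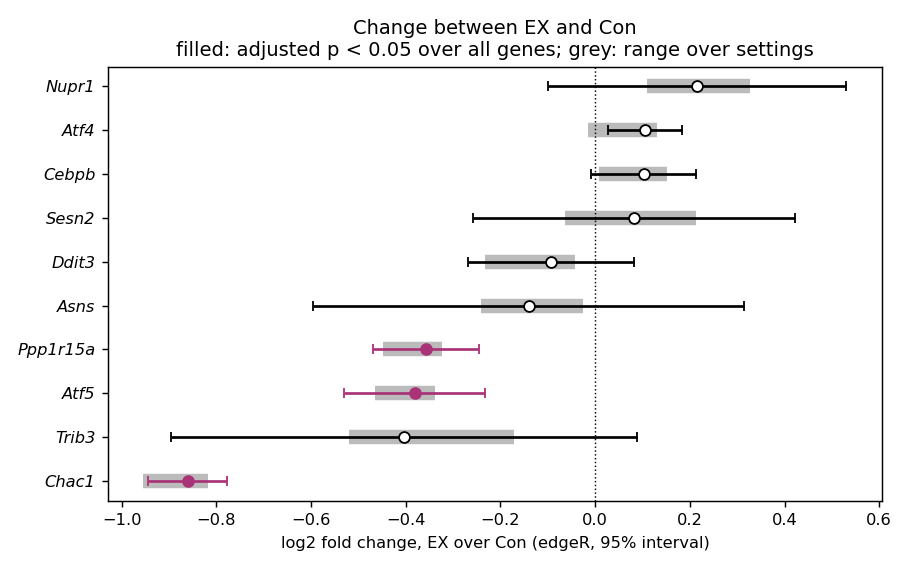
Log2 fold change of EX over Con for the 10 genes (points, edgeR) with 95% intervals (lines). Filled points passed an adjusted p of 0.05 over all genes, and grey bands span the values under the alternative settings. Chac1 stood at -0.86, Atf5 and Ppp1r15a at -0.38 and -0.36, and the intervals of all others but Atf4 included 0.

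Chac1 (gene 69065) encodes a gamma-glutamylcyclotransferase that breaks down glutathione in the cytosol. It was the most abundant member in Con muscle and the one with the largest change. Its levels were 302, 279 and 276 CPM in Con replicates 1 to 3 and 154, 161 and 156 CPM in EX replicates 1 to 3, from counts of 4248, 4397 and 4401 and of 2453, 2540 and 2471. The groups were far apart: the lowest Con library lay above the highest EX library by more than any spread within a group. The mean fell from 286 ± 14.6 to 157 ± 3.59 CPM (SD, n = 3), a log2 fold change of -0.86 (standard error 0.04), or a drop by 44.9%. Over 15 alternative settings the log2 fold change lay between -0.95 and -0.82, past the threshold in all 15, beside 6.79% to 20.5% of all genes. By FPKM, which takes length into account, Chac1 ranked 345th of 16716 genes in Con and 601st in EX. Among all 997 genes past the threshold and lower in EX, Chac1 ranked 96th by log2 fold change, counted from the lowest. Among the 734 genes at a mean level over both groups of 100 FPKM or more, 65 were past the threshold and lower in EX, and Chac1 had the lowest log2 fold change of these.

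Atf4 (gene 11911) was measured at 205, 205 and 216 CPM in Con and at 224, 225 and 224 CPM in EX. All EX libraries lay above all Con libraries on this scale. The EX libraries were closer to one another than counting error alone would usually leave counts of 3543 to 3561, so their closeness is not read as a lack of variation between mice. The log2 fold change was 0.11 (standard error 0.04, 95% interval 0.03 to 0.18) and did not pass the threshold over all genes. In FPKM the groups overlapped, with 156, 155 and 161 in Con and 160.4, 159.8 and 158 in EX. With limma on log2(TPM + 0.1) it was -0.02, above the median of -0.09 over all genes in that fit, and without Con replicate 3 the change was 0.13 and past the threshold, as for 10.6% of all genes there.

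**Figure D2:**
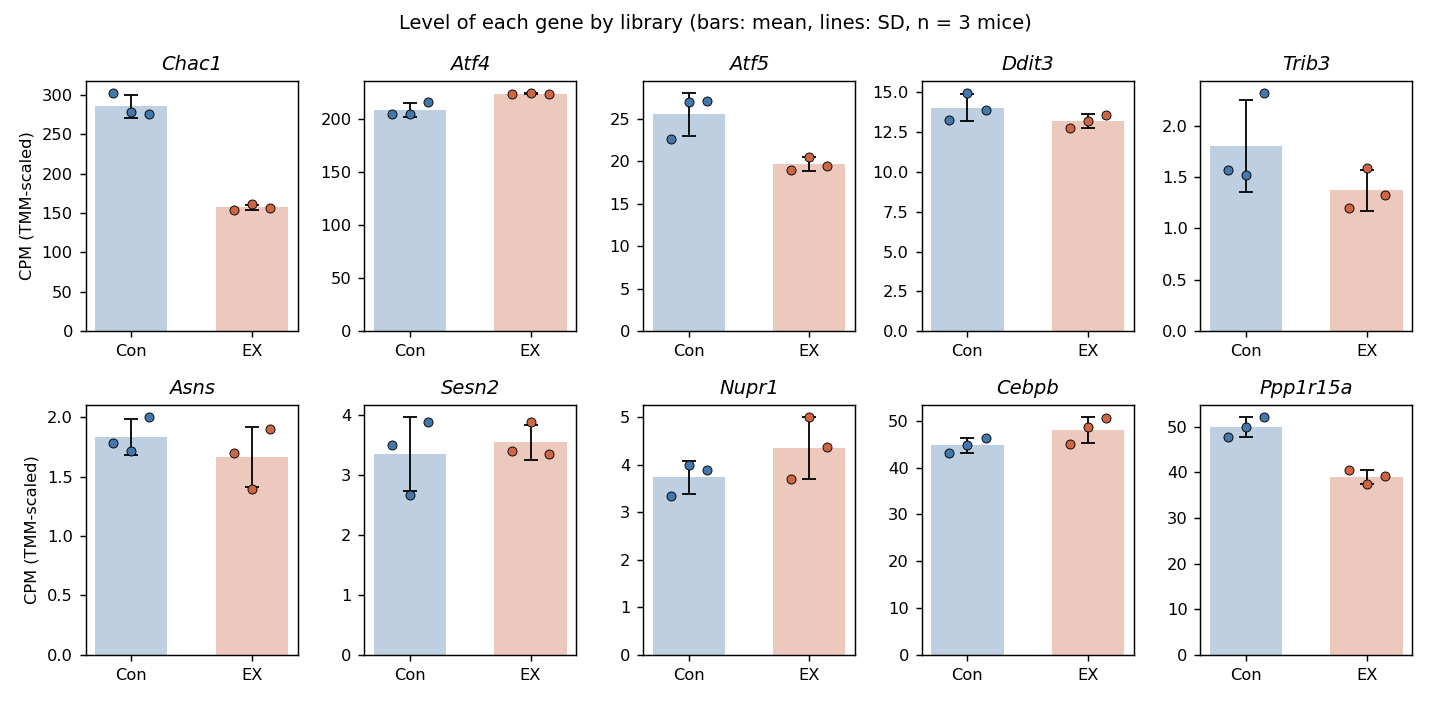
Level of each of the 10 genes in CPM by library (points), with group means (bars) and SD (lines) for 3 Con and 3 EX mice. Axes start at 0 and differ between genes. Chac1 fell from 286 to 157 CPM while Atf4 stood at 208 and 224 CPM.

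The other transcription factors split. Atf5 (gene 107503), a relative of ATF4 that is likewise regulated at translation and is tied to mitochondrial stress, had 22.6, 26.9 and 27.1 CPM in Con and 19.0, 20.6 and 19.5 CPM in EX. Every EX library lay under every Con library, although Con replicate 1 stood nearer to the EX mice than to the other Con mice. The log2 fold change was -0.38 (standard error 0.07), with a range of -0.46 to -0.34 over 15 alternatives, all past the threshold. Cebpb (gene 12608), a C/EBP factor that can pair with ATF4, had 43.1, 44.9 and 46.3 CPM in Con and 45.1, 48.6 and 50.6 CPM in EX. These ranges overlapped, and the log2 fold change of 0.10 (95% interval -0.01 to 0.21) did not pass the threshold. Ddit3 (gene 13198), which encodes CHOP, a factor of stress-induced cell death, had 13.2, 14.96 and 13.9 CPM in Con and 12.8, 13.2 and 13.6 CPM in EX. The CPM ranges overlapped and the log2 fold change was -0.09 (95% interval -0.27 to 0.08). In FPKM the groups of Ddit3 did not overlap, with 20.79, 23.77 and 21.3 in Con and 18.35, 18.73 and 20.29 in EX. With limma on log2(TPM + 0.1), with that median of -0.09, the change of Ddit3 was -0.23 and past the threshold, beside 18.6% of all genes in that fit. Nupr1 (gene 56312), a small chromatin protein induced by many stresses, had 3.35, 3.99 and 3.88 CPM in Con and 3.71, 5.01 and 4.36 CPM in EX. The groups overlapped here too, with a log2 fold change of 0.22 (95% interval -0.10 to 0.53) on counts of 47 to 79 per library.

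The members that damp the response were Ppp1r15a and Trib3. Ppp1r15a (gene 17872) encodes GADD34, the stress-induced partner of the phosphatase that removes phosphate from eIF2. Its levels were 47.8, 50.0 and 52.2 CPM in Con and 40.4, 37.4 and 39.3 CPM in EX, so that the groups were apart by more than the spread within either. The mean fell from 50.0 ± 2.20 to 39.0 ± 1.5 CPM (SD, n = 3), a log2 fold change of -0.36 (standard error 0.06), and it was past the threshold in all 15 alternatives. Its constitutive counterpart Ppp1r15b did not share the difference, with 45.8 CPM in Con and 48.1 CPM in EX, a log2 difference of 0.07 (adjusted p = 0.47, edgeR). Within a library, the ratio of Ppp1r15a to Ppp1r15b counts was 1.07, 1.06 and 1.14 in Con and 0.800, 0.789 and 0.850 in EX. Trib3 (gene 228775), a pseudokinase that is induced by ATF4 and CHOP and inhibits both ATF4 and the kinase AKT, was the rarest member. Its counts were 22, 24 and 37 in Con and 19, 25 and 21 in EX, or 1.52 to 2.32 CPM and 1.19 to 1.59 CPM. These CPM ranges overlapped, while those in FPKM lay just apart, at 0.9 to 1.38 in Con and 0.68 to 0.89 in EX. The log2 fold change of -0.40 had an interval from -0.90 to 0.09, so a change of the size seen in Ppp1r15a was not detectable at this depth.

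The remaining members act in metabolism and were low in muscle. Asns (gene 27053), asparagine synthetase and a standard reporter of ATF4 activity, was counted 25, 27 and 32 times in Con mice and 27, 22 and 30 times in EX mice. Its groups overlapped at 1.71 to 2.004 and 1.40 to 1.90 CPM, with a log2 fold change of -0.14 (95% interval -0.60 to 0.31). Sesn2 (gene 230784), a leucine sensor that restrains the growth kinase complex mTORC1, was counted 49, 42 and 62 times in Con mice and 54, 61 and 53 times in EX mice. Its log2 fold change was 0.08 (95% interval -0.26 to 0.42), and the sign turned without Con replicate 2, at -0.06. For both genes the groups could not be told apart at these counts.

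Compared per transcript length, the 10 genes spanned more than 2 orders of magnitude. In Con muscle the mean FPKM ran from 234 ± 10.2 (SD, n = 3) for Chac1 through 157 ± 3.17 for Atf4, 38.3 ± 1.71 for Cebpb, 25.4 ± 1.32 for Ppp1r15a, 22.0 ± 1.59 for Ddit3, 18.5 ± 1.95 for Atf5 and 12.7 ± 1.35 for Nupr1 to 1.46 ± 0.278 for Sesn2, 1.14 ± 0.102 for Asns and 1.07 ± 0.272 for Trib3. All neighbours in this order had ranges apart except Sesn2 and Asns, and Asns and Trib3. In EX muscle Atf4, at 159.5 ± 1.002 FPKM, stood above Chac1, at 124 ± 1.73 FPKM. In EX the neighbours that overlapped were Ddit3 and Ppp1r15a, Nupr1 and Atf5, and Asns and Trib3.

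**Figure D3:**
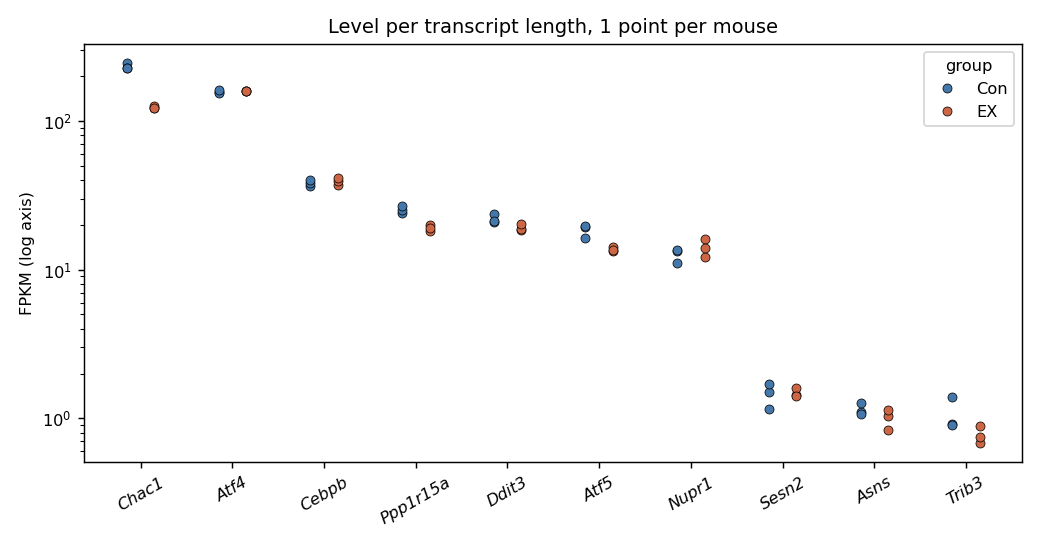
FPKM of the 10 genes on a log axis, ordered by their mean in Con, with 1 point per mouse. Chac1 lay above Atf4 in all Con mice, at 228 FPKM or more, and below it in all EX mice, at 126 FPKM or less.

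Ratios of counts within a library need no scaling between libraries. For each count of Atf4 there were 1.48, 1.36 and 1.28 counts of Chac1 in Con and 0.689, 0.717 and 0.697 in EX, so that the EX mean was 0.511 of the Con mean. The ratio of Atf5 to Atf4 in EX was 0.716 of that in Con and the ratio of Ppp1r15a to Atf4 was 0.726. All 3 ratios were lower in every EX mouse than in any Con mouse. The denominator itself was higher in EX in CPM: over the 10882 other genes at 1 FPKM or more the median of the same quotient was 0.929, and 32.4% of all 16715 genes had ratios to Atf4 that did not overlap, 26.8% being lower in EX. The ratio of Ddit3 to Atf4 did not overlap either, at 0.873 of Con, although the CPM ranges of Ddit3 itself did, with 0.0647, 0.0730 and 0.0644 in Con and 0.0570, 0.0587 and 0.0607 in EX. The ratio of Cebpb to Atf4 overlapped between the groups and its EX mean was 0.999 of the Con mean.

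**Figure D4:**
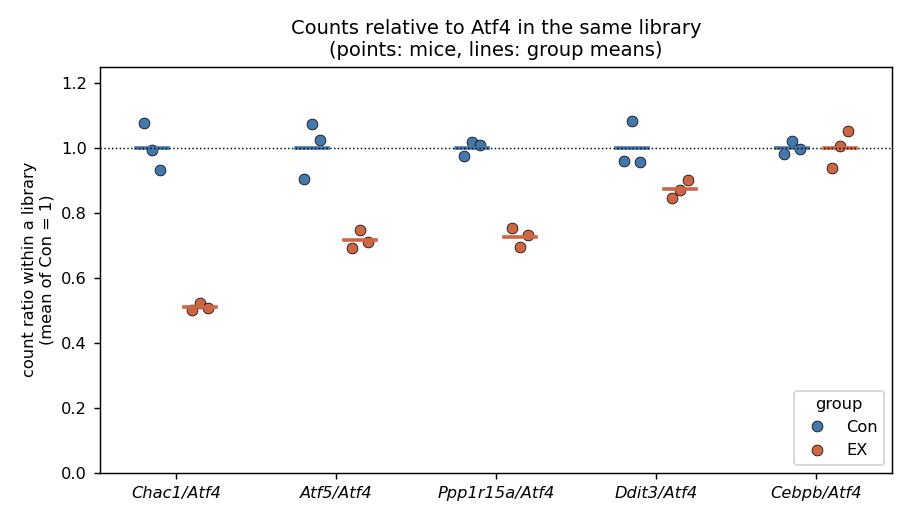
Count of 5 genes divided by the count of Atf4 in the same library and set relative to the mean of Con, with points for mice and lines for group means. The EX means were 0.511 for Chac1, 0.716 for Atf5, 0.726 for Ppp1r15a, 0.873 for Ddit3 and 0.999 for Cebpb.

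Con replicate 3 had the highest CPM of its group for 7 of the 10 genes and Con replicate 1 the lowest for 6, while Chac1 was highest in Con replicate 1. Among EX mice, replicate 2 was highest for 6 genes and replicate 1 lowest for 7. The spread between mice of a group was widest for the members with few counts. The coefficient of variation ran from 0.246% for Atf4 in EX, less than counting error alone would usually give, to 24.8% for Trib3 in Con. It was 18.6% for Sesn2 in Con, 15.2% for Asns in EX and 14.96% for Nupr1 in EX. The counts of all 10 genes were whole numbers in all 6 libraries. In the GENCODE annotation of GRCm38, exons of Atf5 overlap Nup62 and Il4i1 on the opposite strand, those of Ddit3 overlap Mars and Gm4189, and those of Ppp1r15a overlap Tulp2. The sources used here do not state that counting used strand, so reads of such partners cannot be told apart. Mars, at 121 CPM in Con and 108 CPM in EX, fell by 0.16 on the log2 scale (adjusted p = 9.4e-03) and stood well above Ddit3, whose log2 fold change has the same sign. Nup62 had a log2 difference of 0.07 (adjusted p = 0.54), while Il4i1 rose from 1.51 to 3.24 CPM, against the direction of Atf5. Tulp2 was near 0, at 0.0237 CPM in Con and 0.0209 in EX.

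Other genes of the pathway and of responses beside it were taken as 11 lists by role, which leave out the 10 members. Of these lists, 1 holds 10 immediate early genes, 2 of them higher and 3 lower, which are not as a whole genes of this pathway. The counts over all lists therefore cover more than the pathway. Of the 131 listed genes in the table, counted once each, 11 rose and 13 fell, or 18.3%, beside 12.0% of all genes. At a mean level of 1 FPKM or more, 23 of 116 were past the threshold, or 19.8%, beside 16.8% of all genes at that level. The median log2 fold change was 0.03 over the 131 and -0.00 over all genes. The split was 12 higher and 13 lower with median-ratio scaling and 7 and 13 on totals without the 20 most abundant genes. In the limma fits, which change the measure, the filter and the test together, it was 5 and 16 on log2(FPKM + 0.1) and 4 and 24 on log2(TPM + 0.1). Of all genes in these 2 fits, 13.3% and 18.6% were past the threshold. Leaving out 1 library lowered the 24 calls to 15 without Con replicate 2, without EX replicate 1 or without EX replicate 3.

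Upstream of ATF4 the only listed gene past the threshold was a kinase. The list of 17 genes held the eIF2 kinases, eIF2, its exchange factor eIF2B and the related genes Gcn1, Impact, Dele1, Oma1 and Ppp1r15b. Of these 17, 1 fell and none rose, beside 12.0% of all genes past the threshold. Eif2ak2, which encodes PKR, the kinase that senses double-stranded RNA, fell from 14.3 ± 1.38 to 10.2 ± 0.681 CPM (SD, n = 3), or by 0.48 on the log2 scale (SE 0.10, adjusted p = 2.5e-04, edgeR). It was past the threshold in all 14 alternatives that tested it. The kinases for heme stress (Eif2ak1), endoplasmic reticulum stress (Eif2ak3) and amino acid shortage (Eif2ak4) had log2 fold changes of -0.01, -0.11 and -0.06, none past the threshold. The median of the list was -0.01. With limma on log2(TPM + 0.1), 3 of its genes were called lower, beside 15.5% of all genes in that fit.

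The amino acid supply genes that ATF4 is known to induce were taken as 3 lists, whose calls are to be read beside the 12.0% of all genes past the threshold. Of 9 transporters, 2 rose and none fell. Slc38a2, the glutamine and alanine carrier SNAT2, rose by 0.34 (log2), from 237 to 299 CPM (SE 0.04, adjusted p = 8.3e-09), past the threshold in all 15 alternatives. Slc1a5, another glutamine carrier, rose by 0.25 (adjusted p = 0.027), but leaving out a library kept it past the threshold in 2 of 6 cases, with adjusted p between 0.022 and 0.16. Of 12 cytosolic aminoacyl-tRNA synthetases, which charge tRNA with amino acids, 1 fell and none rose. This was Mars, for methionine, at -0.16 (adjusted p = 9.4e-03), whose adjusted p was 0.11 without EX replicate 1 and 0.075 without EX replicate 3. Of 12 enzymes of serine, proline, folate and other amino acid metabolism, the last being Cth, Gpt2 and Got1, 1 rose and none fell. This was Psat1, phosphoserine aminotransferase, from 1.18 to 1.94 CPM, at 0.72 (adjusted p = 0.044), which was past the threshold in none of the 6 fits that left out a library (adjusted p 0.065 to 0.17). With limma on log2(TPM + 0.1) the calls were 1 higher for the transporters, 4 lower for the synthetases and none for the enzymes. Of all genes in that fit, 3.12% were higher and 15.5% lower. The medians of these lists were -0.05, 0.00 and 0.10 on the log2 scale.

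Further genes downstream of ATF4 moved both ways. Of 14 outputs of the stress response in the table, 2 rose, 2 fell and 10 did not pass the threshold, beside 12.0% of all genes past it. With limma on log2(TPM + 0.1) the calls were 2 higher and 4 lower, beside 3.12% of all genes higher and 15.5% lower in that fit. Vldlr, a lipoprotein receptor, fell from 419 to 336 CPM, at -0.32 on the log2 scale (adjusted p = 5.2e-09). Cebpg, a C/EBP partner of ATF4, fell by 0.21 (adjusted p = 2.5e-03), although leaving out Con replicate 2 or EX replicate 2 gave an adjusted p of 0.054 or 0.078. Atf3, a factor that ATF4 induces, rose from 3.23 to 5.03 CPM, at 0.64 (SE 0.16, adjusted p = 3.4e-03), and leaving out Con replicate 2 or EX replicate 3 gave an adjusted p of 0.054 or 0.066. Gadd45a, a gene of growth arrest, rose by 0.27 (adjusted p = 2.5e-03). The secreted stress factors Fgf21 and Gdf15 had means of 0.0633 and 0.0211 CPM in EX, at the floor of detection.

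The relatives of the members also split. The share of all genes past the threshold, to be set beside the counts that follow, was 12.0%. Of 14 further C/EBP, ATF and CREB factors, 1 rose and 4 fell. Atf3 was the one that rose, and Cebpd, a C/EBP factor of acute stress, fell by 0.39 (adjusted p = 9.5e-04), Atf7 by 0.24 (adjusted p = 3.9e-04) and Atf2 by 0.21 (adjusted p = 0.024), with Cebpg the other. Leaving out EX replicate 1, EX replicate 2 or else Con replicate 2 brought the number lower from 4 to 2. The adjusted p of Cebpd was 0.083 without EX replicate 1, and that of Atf2 lay between 0.035 and 0.17 over the fits that left out a library, under the threshold in 1 of 6. Of 8 paralogs of the members, Trib2 fell by 0.26 (adjusted p = 3.7e-04), Cebpd and Sesn1 fell and Chac2 rose, and the 3 lower calls were 1 without EX replicate 1. Chac2, the constitutive and slower relative of CHAC1, rose from 16.7 to 19.6 CPM, at 0.23 (SE 0.08, adjusted p = 0.039), a direction opposite to that of Chac1. It was past the threshold in 4 of 15 alternatives and in 1 of the 6 that left out a library, and Sesn1 (-0.18, adjusted p = 0.037) in 7 of 15 and in none of those 6. Of 12 genes of glutathione synthesis and breakdown, the pathway in which CHAC1 acts, Chac2 was the only one past the threshold, and the median was 0.06.

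The neighbouring branches of the unfolded protein response were covered by lists of chaperones, sensors and proteases, given beside the 12.0% of all genes past the threshold. Of 21 genes of endoplasmic reticulum chaperones and of the ATF6 and XBP1 branch, Calr (0.21, adjusted p = 5.7e-04) and Pdia6 (0.26, adjusted p = 9.9e-04) rose and Ern1, which encodes the sensor IRE1, fell by 0.36 (adjusted p = 0.032). Calr and Pdia6 did not pass the threshold with limma on FPKM or TPM, and Ern1 passed it in 1 of 6 fits that left out a library, with adjusted p up to 0.20. Hspa5, the chaperone BiP, had a log2 difference of 0.09 (adjusted p = 0.12). Of 11 mitochondrial chaperones and proteases, Hspd1, the chaperonin HSP60, rose from 206 to 244 CPM, at 0.24 (adjusted p = 1.5e-05), and Dnaja3 rose by 0.12 (adjusted p = 0.042), the latter past the threshold in none of 6 fits that left out a library. The log2 fold change was above 0 for 13 of the 21 genes (median 0.07) and for 10 of the 11 (median 0.04). The summed level of the first list was 1397 to 1425 CPM in Con and 1452 to 1480 CPM in EX, and that of the mitochondrial list 1433 to 1503 and 1548 to 1567 CPM. Median-ratio scaling gave the same numbers of calls, 2 higher and 1 lower in the first list and 2 higher in the mitochondrial list. On totals without the 20 most abundant genes the first list was the same and the mitochondrial list had 1 higher. With DESeq2 and with the replicate block the mitochondrial list also had 1 higher. With limma on log2(TPM + 0.1), which changes the measure, the filter and the test together and where the median of all genes tested was -0.09, the calls were 0 higher and 3 lower in the first list and 0 higher and 1 lower in the mitochondrial list, and Hspd1, at 0.15, did not pass the threshold. Of all genes in that fit, 3.12% were higher and 15.5% lower.

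**Figure D5:**
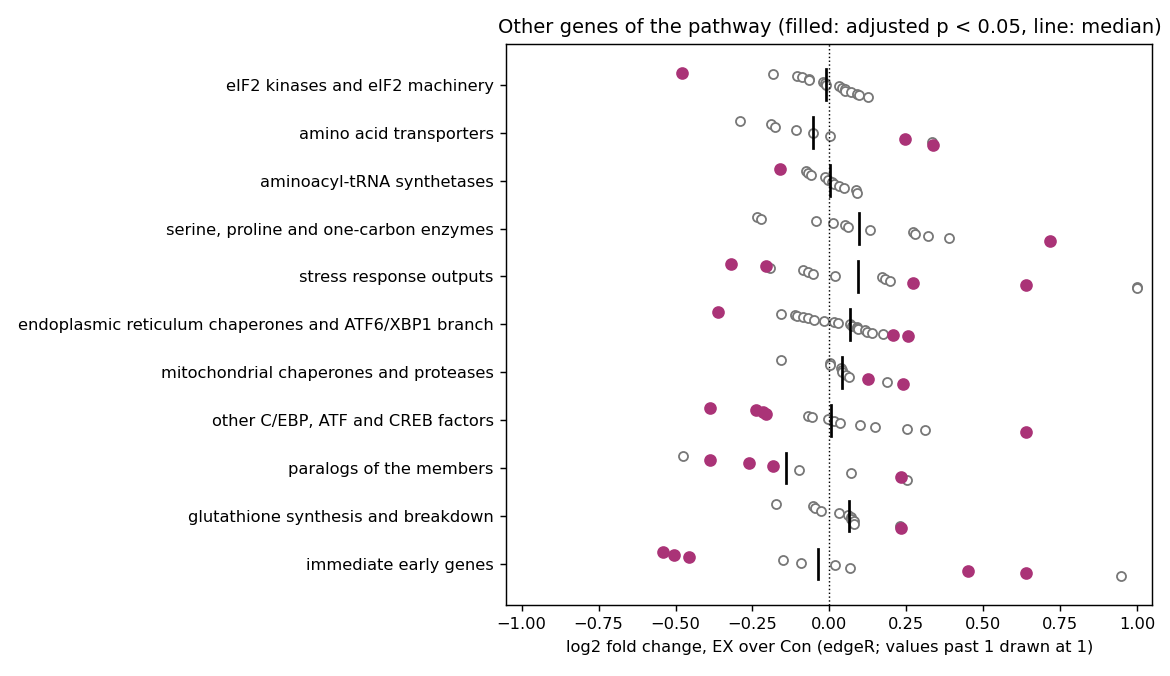
Log2 fold change of EX over Con for each gene of the 11 lists (points, edgeR), with filled points past an adjusted p of 0.05 over all genes and a line at each list's median. Medians lay between -0.14 for the paralogs and 0.10 for the list of serine, proline, folate and other amino acid enzymes, and points past 1 are drawn at 1.

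Ppp1r15a, Cebpb and Atf3 are also known as immediate early genes, which respond within minutes to contraction or tissue handling. Of 10 genes of that kind, 2 rose and 3 fell, with a median of -0.04, beside 12.0% of all genes past the threshold. Btg2 fell by 0.54 (adjusted p = 2.2e-09), Egr1 by 0.51 (adjusted p = 2.6e-06) and Junb by 0.46 (adjusted p = 9.8e-05), while Jun rose by 0.45 (adjusted p = 1.1e-11) beside Atf3, and Fos had a difference of 0.07 (adjusted p = 0.66). Their summed level was 550 to 595 CPM in Con and 589 to 596 CPM in EX. The part of handling or of the time since the last run in the level of Ppp1r15a was not tested.

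Markers of other cell types moved with the groups in this bulk tissue, where fewer cells of a type and less RNA per cell cannot be told apart. Their counts stand beside the 12.0% of all genes past the threshold. Of 10 endothelial markers, 5 fell and 1 rose, and their summed level was 826 to 841 CPM in Con and 731 to 750.1 CPM in EX, in the direction of Chac1, Atf5 and Ppp1r15a. The 5 lower endothelial calls came to 3 when EX replicate 1, EX replicate 2 or else Con replicate 2 was left out and to 2 without EX replicate 3, and the higher call, Cldn5 (0.26, adjusted p = 0.018), was lost in each of these fits. Cdh5 fell by 0.26 and Tie1 by 0.22, both in all 15 alternatives, and Egfl7 by 0.18, with an adjusted p of 0.061 to 0.14 in 4 of the 6 fits that left out a library. Of 10 macrophage markers, 6 rose, with sums of 44.9 to 49.7 and 79.7 to 87.2 CPM, among them Csf1r (0.93 on the log2 scale), C1qa (0.90), C1qb (1.03) and C1qc (1.26). Of 10 adipocyte markers, 7 rose, with sums of 669 to 695 and 770.4 to 803 CPM that rest mainly on Plin4, at 404 CPM in Con and 499 CPM in EX. Cfd rose from 10.2 to 25.02 CPM, Cidec from 1.58 to 4.53, Adipoq from 1.43 to 3.31, Retn from 0.713 to 2.13 and Lep from 0.0660 to 0.548 CPM, the last with an adjusted p of 0.055 without EX replicate 2, while Fabp4 (228 and 214 CPM), Lipe (27.6 and 27.1 CPM) and Pparg (4.99 and 4.59 CPM) did not pass the threshold. Of 10 tendon and fibroblast markers, 5 rose, with sums of 762 to 814 and 998 to 1018 CPM, among them Col1a1 (0.86 on the log2 scale), Tnmd (0.85), Fmod (0.79) and Col1a2 (0.61). Pdgfra (-0.14) and Dcn (-0.10, from 331 to 309 CPM) lay below 0, and Scx, Comp and Mkx above it, none of them past the threshold. The 5 neutrophil markers in the table summed to 1.14 CPM or less in every library, and 0 of 5 passed the threshold, S100a8 being at 0.110 CPM in Con and 0.0632 in EX. Of the 10 fibre markers, 3 rose and 2 fell, with Pvalb at 0.35, Acta1 at 0.22, Atp2a1 at 0.15 and Mb at -0.14 on the log2 scale, and the 2 lower calls were 1 without EX replicate 2 or either of Con replicates 2 and 3, and 0 without EX replicate 1 or EX replicate 3. The part of these cells in the levels of the 10 stress response genes was not tested.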

How the data were processed

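RNA sequencing of hind leg muscle from 3 Con and 3 EX mice was analysed from the table the authors deposited. The authors filtered the reads and deposited, per gene and library, an estimated count, an FPKM value and a TPM value, the last 2 normalized by them for length and depth. The paper names HISAT and GRCm39, while the submitters' processing notes name cutadapt, featureCounts, MultiQC and GRCm38.p6, and which build the counts rest on was not settled here. The 6 columns of group means were not used. Between 4.18% and 4.44% of the estimated counts in a library were not whole.

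The counts were rounded, scaled by TMM and fitted in R 4.3.3 by glmQLFit and glmQLFTest of edgeR 4.0.16 over all genes with at least 1 count, with Benjamini-Hochberg adjustment and a threshold of 0.05. Alternatives were median-ratio scaling, totals without the 20 most abundant genes, filters of 1 and 5 FPKM, DESeq2 1.42.0, limma 3.58.1 on log2(FPKM + 0.1), log2(FPKM + 1) and log2(TPM + 0.1) for genes of at least 1 FPKM, a replicate block, and leaving out each library. Fold changes on a log2(value + pseudocount) scale understate the change of low genes. The fits were tested on simulated data.

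The 10 genes and the lists were chosen with earlier results of these data known. Genes named were all 10, and in each list up to 4 past the threshold with the largest change, or the most abundant where none passed; other genes named were chosen after their values were seen. Symbols matched for 131 of the 133 genes in the 11 lists. Replicate pairs of a group all differed by more than sampling noise. Con and EX mice share only replicate numbers. No batch is given in the sources used here. The edgeR p-values rest on the spread between these mice, with that of each gene drawn toward the spread of other genes (prior degrees of freedom 30.9). The common coefficient of variation beyond counting error was 0.033. A count of 0 allows up to 3 counts, for counting error only.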

Additional observations from a re-analysis of the deposited data

How the results depend on the processing

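The 3 calls among the 10 genes, Chac1, Atf5 and Ppp1r15a, held in all 15 alternatives, and the number of members called was 3 or 4. The sign of Atf4 turned with limma on log2(TPM + 0.1), to -0.016, and that of Sesn2 turned there, to -0.0006, in a fit whose median over all genes was -0.09, so that both genes lay above the median gene. Sesn2 also turned without Con replicate 2, to -0.063, where leaving out each library gave -0.063 to 0.21. The number of genes past the threshold, 2013, was 1174 with DESeq2 (628 higher and 546 lower). The number higher in EX, 1016, was 411 with limma on log2(FPKM + 0.1), 411 on log2(FPKM + 1) and 340 on log2(TPM + 0.1), where 1684 were lower. Leaving out 1 library gave 1125 to 1757 genes in all, 613 to 912 higher and 497 to 845 lower, and 15 to 19 of the pathway genes. With the replicate block the number was 1856, and 20 pathway genes. Same-numbered mice did not deviate together (correlations of -0.08, -0.05 and -0.07 across genes), so the numbers do not pair them. The causes of these differences were not tested. Depth limits Trib3, Asns, Sesn2 and Nupr1, with 19 to 79 counts per library.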
